A study of Arabidopsis thaliana with 14 samples.

Results

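Sugar handling in the young Arabidopsis seed is described here through 5 genes: the sugar transporters SWEET1, SWEET4, SWEET8 and SWEET10, and ATSPS4F, which encodes a sucrose phosphate synthase. They were chosen by the gene symbol of their probe sets in the platform annotation, as sugar genes that each stood out in a seed compartment, so their own signal across compartments chose them and is given as a description without a test. Each of the 5 had a single probe set, and 13350 genes had a named probe set in all. All 5 were bright enough to be tested, but 3 of them were brightest in the same compartment, so they do not each mark a compartment of their own.

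Laser capture microdissection of paraffin sections gave 6 seed compartments and sections of whole seeds, with 2 arrays in each of the 7 groups and 14 arrays in all. The compartments were the embryo proper, the micropylar, peripheral and chalazal endosperm, the general seed coat and the chalazal seed coat. Every group came from untreated Ws-0 plants of 38 to 46 days kept at 20 °C in continuous light, from siliques of 1.0 to 1.1 cm whose embryo propers held 2 to 8 cells. The titles name the peripheral endosperm, whereas the source label of those arrays calls it cellularized. The replicates are labelled biological, but no label ties a captured region to a plant, so regions of different groups may share plants and p-values measure only the spread between these arrays. RNA was amplified from 2 to 5 ng, and each array therefore shows amplified RNA of many captured sections.

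SWEET proteins are membrane carriers that let sugars pass down their concentration gradient, in either direction. Members of 1 clade mainly carry sucrose, and other clades mainly carry glucose or other hexoses. Sucrose phosphate synthase joins UDP-glucose and fructose 6-phosphate to sucrose phosphate, from which a phosphatase releases sucrose. In the seed, sucrose arrives in the maternal phloem, which ends at the chalaza. No plasmodesmata join the maternal seed coat to the endosperm or the endosperm to the embryo, so sugars cross these borders through membrane carriers. In Arabidopsis, SWEET11, SWEET12 and SWEET15 are known for sugar export within the seed at later stages of filling.

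Values are array signals on a linear scale, whose size can be compared between groups for a gene and not between genes. The mean over the middle of each array's values, without the lowest and highest 2%, was 500.04 to 500.07. Signal under the 40th percentile of its array, which lay between 68.1 and 112, is called dim below. Differences are on the log2(signal + 35.9) scale, which understates differences that start from a dim signal. Replicate arrays correlated at r = 0.852 in the chalazal and 0.858 in the micropylar endosperm and at 0.900 to 0.930 in the other groups, across probe sets. Of 25 marker genes set beside the labels, 9 had a named probe set. The list was drawn up with earlier results of these data known, so the peaks are no independent check of the labels. The embryo gene BBM was brightest in the embryo proper, AGL62 and IKU1 in the chalazal and MPC in the peripheral endosperm, DFR, BAN and INO in the general seed coat, and RR22 in the chalazal seed coat. IKU2, the other endosperm marker, was brightest in the micropylar endosperm (224 and 20.9) but too dim to be tested. No tested marker was thus brightest in the micropylar endosperm. The coat marker DFR also gave mean signals of 1790 in the micropylar, 2189 in the peripheral and 4149 in the chalazal endosperm. Its means were 29398 in the general and 13626 in the chalazal seed coat.

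SWEET10, of the sucrose-carrying clade, was a gene of the chalazal seed coat in these arrays. Its signal there was 3778 and 6898 (mean 5338 ± 2206, SD, n = 2). The micropylar endosperm gave 165 and 31.1, while 23.7 and 104 were read in the chalazal endosperm. The general seed coat gave 10.9 and 9.79, the embryo proper 2.74 and 6.72 and the peripheral endosperm 3.98 and 3.19. Both chalazal seed coat arrays thus stood above every other compartment array, and the lower of them was 22.9 times the highest of the other 10. The chalazal seed coat held 96.7% of the sum of the 6 compartment means. Over all 17336 tested probe sets, the brightest compartment held a median of 34.3% of that sum, with quartiles of 27.7% and 45.7%. The gap to the micropylar endosperm, the second brightest compartment, was 5.47 on the log2 scale, against a pooled replicate SD of 0.90. It ranged from 4.68 without micropylar endosperm replicate 2 to 6.26 without its replicate 1. The 2 coat regions differed sharply in SWEET10, since the general seed coat was dim on both arrays. Among dim groups the order carries little, and the arrays of the micropylar and chalazal endosperm overlapped, as did those of the embryo proper and peripheral endosperm.

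ATSPS4F followed the same compartment. The chalazal seed coat arrays read 10829 and 10432 (10630.3 ± 281), the closest replicates relative to their mean among the brightest groups of the 5 genes. The general seed coat read 165 and 163, the peripheral endosperm 175 and 223 and the micropylar endosperm 140 and 350. The embryo proper gave 141 and 2.47, and the chalazal endosperm 36.8 and 45.9. ATSPS4F was not dim everywhere outside the chalazal seed coat, since 11 of its 14 arrays lay above the 40th percentile. The lower chalazal seed coat array was 29.8 times the highest of the other 10 compartment arrays. The compartment held 93.6% of the sum of means, and the mean was 43.4 times that of the micropylar endosperm, the next in order. On the log2 scale this gap was 5.36 (pooled SD 0.57), with 5.92 without micropylar endosperm replicate 2 and 4.79 without replicate 1. The chalazal endosperm, which lies against the chalazal seed coat, was the dimmest compartment for ATSPS4F, at 41.3 ± 6.46. Its arrays overlapped those of the embryo proper, whose own 2 arrays were far apart.

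SWEET4, a hexose carrier known from vascular tissue in Arabidopsis, was the third gene brightest in the chalazal seed coat. Signals there were 2708 and 2850.2 (2779 ± 100.2). The chalazal endosperm had 407 and 58.0, so its replicates lay on either side of the dim limit. The micropylar endosperm had 234 and 131, and the embryo proper 80.4 and 57.6. The peripheral endosperm had 68.8 and 8.68 and the general seed coat 44.6 and 1.67, dim on all 4 arrays. The lower chalazal seed coat array was 6.65 times the highest other compartment array, which was chalazal endosperm replicate 1. SWEET4 was less concentrated than SWEET10 and ATSPS4F, with 83.6% of the sum of means in the chalazal seed coat. The log2 gap to the chalazal endosperm was 3.79 (pooled SD 1.12), and became 4.90 without chalazal endosperm replicate 1 and 2.67 without replicate 2. The same endosperm array had the higher signal of the chalazal seed coat marker RR22, at 240.4 against 27.3 on replicate 2, with 17472 and 16569.7 in the chalazal seed coat itself. The other coat markers went the other way and were higher on replicate 2, with a summed signal of DFR, BAN and INO of 4461 on replicate 1 and 4852.5 on replicate 2. SWEET10 and ATSPS4F were likewise higher on replicate 2 of the chalazal endosperm. The part of captured coat tissue in the SWEET4 signal of replicate 1 was not tested.

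SWEET1, a glucose carrier of the plasma membrane, was instead brightest in the general seed coat. Its arrays there read 677 and 855 (766 ± 126). The chalazal endosperm followed with 65.5 and 147, and 1 of these arrays was above the dim limit. The chalazal seed coat, where the other genes of the coat peaked, gave 34.4 and 10.54, and was the dimmest compartment for SWEET1. The peripheral endosperm had 10.01 and 59.9, the embryo proper 2.44 and 47.5 and the micropylar endosperm 25.2 and 21.3. These dim groups overlapped from each to the next in order. SWEET1 and SWEET4 therefore had opposite coat regions, each dim on both arrays where the other was brightest. The general seed coat held 78.3% of the sum of the SWEET1 means, its mean was 7.21 times that of the chalazal endosperm, and the log2 gap was 2.55 (pooled SD 0.45).

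SWEET8, a glucose carrier known in Arabidopsis for its role in pollen wall formation, was the only 1 of the 5 brightest in the endosperm. The micropylar endosperm arrays read 25269.9 and 22329 (23799.5 ± 2079.5). The peripheral endosperm read 6163 and 6633 and the chalazal endosperm 4843.5 and 6317, and these groups overlapped. The embryo proper read 2422.5 and 2233. The seed coat was far lower, with 309 and 80.8 in the chalazal and 37.7 and 165 in the general seed coat, and these overlapped too. The gene thus showed a graded order over the filial tissues, from micropylar endosperm to embryo proper, and low signal in the maternal tissue. The log2 gap between the micropylar and peripheral endosperm was 1.89 with a pooled SD of 0.10, the smallest gap of the 5 genes and the tightest replicates on that scale. The mean of the 3 endosperm regions exceeded that of the 2 coat regions by 5.92 on the log2 scale (SE 0.30). The micropylar endosperm held 62.0% of the sum of means, the lowest share among the 5 genes.

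The embryo proper at this stage is enclosed by micropylar endosperm, and its SWEET8 mean was 9.78% of the micropylar one. For the endosperm markers the same ratio was 12.2% for AGL62, 21.7% for MPC and 75.9% for IKU1, and 7.49% for IKU2, which was too dim to be tested. The summed signal of these 4 markers, of 9 listed, on the 2 embryo arrays was 620 and 761, on the micropylar arrays 2904 and 1899 and 311 to 544 over the 4 coat arrays. AGL62 read 97.6 and 107 in the embryo proper, within the 35.9 to 142 of the coat arrays. MPC read 82.3 and 329 there, against 101 and 164 in the general and 7.41 and 5.94 in the chalazal seed coat. IKU1 read 430 and 316 there, against 277 and 236 in the general and 419 and 213 in the chalazal seed coat. The part of captured endosperm in the SWEET8 signal of the embryo proper was not tested.

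**Figure D1:**
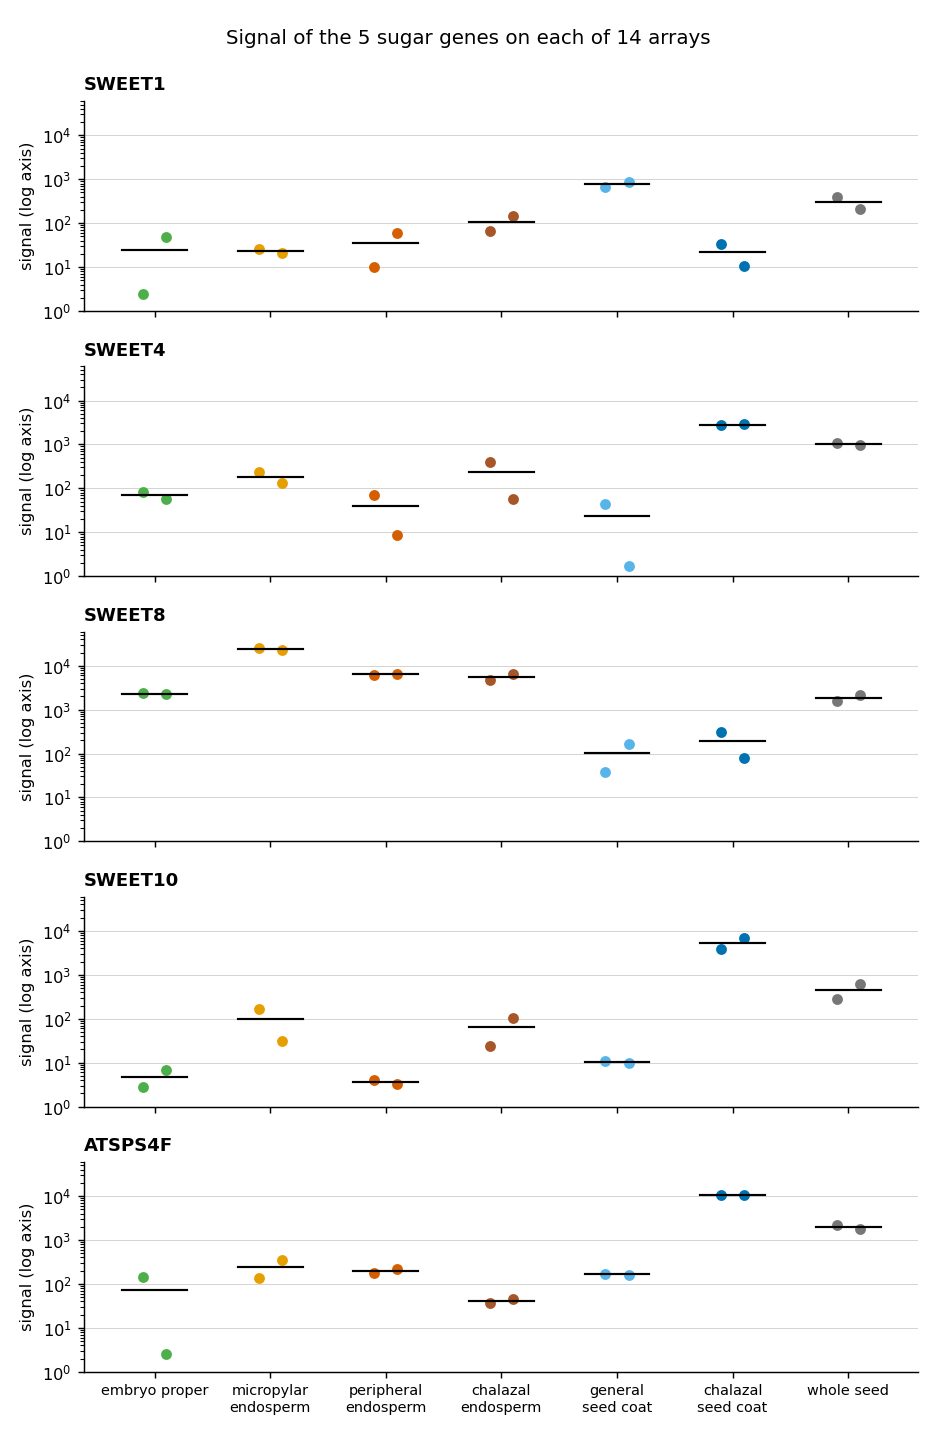
Signal of SWEET1, SWEET4, SWEET8, SWEET10 and ATSPS4F (vertical axis, linear signal on a log axis) in 7 groups (horizontal axis); each point is an array and each line the mean of 2 arrays. In every panel both arrays of 1 compartment lie above all other compartment arrays: the general seed coat for SWEET1, the micropylar endosperm for SWEET8 and the chalazal seed coat for the other 3 genes.

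For each of the 5 genes both arrays of the brightest compartment lay above the other 10 compartment arrays, a property that the choice of the genes fixed. It held for 8.45% of tested probe sets in the chalazal seed coat, 7.38% in the micropylar endosperm and 7.16% in the general seed coat, and nothing is read from the comparison. Against the mean of the other 5 compartments the log2 differences in the chalazal seed coat were 6.42 (SE 0.51) for SWEET10, 6.15 (SE 0.48) for ATSPS4F and 4.66 (SE 0.53) for SWEET4. They were 3.50 (SE 0.48) for SWEET1 in the general seed coat and 4.36 (SE 0.37) for SWEET8 in the micropylar endosperm. Among the 10 pairs of these genes, SWEET4 and SWEET10 had the highest correlation over the 14 arrays (r = 0.90), followed by SWEET10 with ATSPS4F (0.88) and SWEET4 with ATSPS4F (0.82). All other pairs lay between -0.47 and -0.06. These correlations describe groups chosen for their peaks, and arrays of a group share their tissue, so no p is given.

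Whole-seed sections gave the genes a different order of visibility. SWEET4 read 1099.6 and 986 in the whole seed, 37.5% of its chalazal seed coat mean, and SWEET1 read 387 and 212, 39.1% of its general seed coat mean. ATSPS4F read 2195 and 1814, or 18.9% of its chalazal seed coat mean. SWEET10 read 274 and 626, which was 8.43% of the mean in that same compartment. SWEET8 read 1539 and 2157, or 7.77% of its micropylar mean, and the whole seed was below all 3 endosperm regions and the embryo proper. The whole seed was second to the brightest compartment for the other 4 genes. In bulk tissue like this, for a single gene, fewer cells of a type and less RNA per cell cannot be told apart. SWEET4, ATSPS4F and SWEET10 share a brightest compartment, and the cause of their unequal percents was not tested.

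Genes with a shared peak were thus seen at unequal strength in the whole seed. The chalazal seed coat marker RR22 reached 40.01% of its peak there, near SWEET4 and above ATSPS4F and SWEET10. The endosperm markers AGL62, MPC and IKU1 reached 6.19%, 12.2% and 18.8%, and the general seed coat markers BAN, DFR and INO 58.5%, 69.6% and 89.9%. Against the plain mean of the 6 compartments, the whole seed was 1.88 times as bright for SWEET4, 1.84 times for SWEET1, 1.06 times for ATSPS4F, 0.489 times for SWEET10 and 0.289 times for SWEET8. On the log2 scale, which gives dim compartments more weight, the differences were 2.50 (SE 0.53) for SWEET4, 1.62 (SE 0.47) for SWEET1, 2.73 (SE 0.47) for ATSPS4F, 1.84 (SE 0.50) for SWEET10 and -0.04 (SE 0.36) for SWEET8. SWEET10 in the whole seed was thus below the linear mean of the compartments and above their log2 mean.

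**Figure D2:**
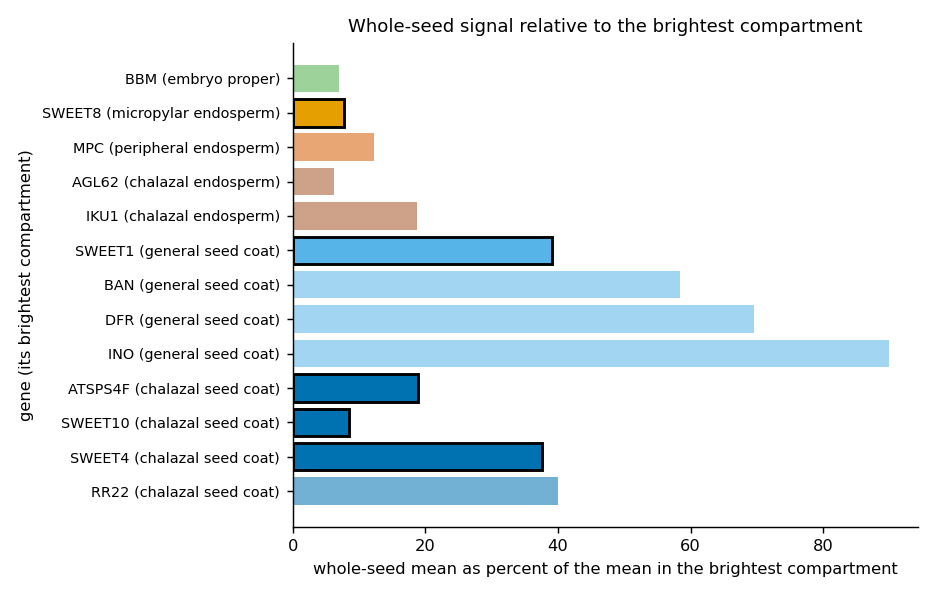
Whole-seed mean as a percent of the mean in the gene's brightest compartment (horizontal axis) for the 5 sugar genes (black outline) and the 8 tested markers (pale bars), ordered and coloured by brightest compartment. The bars of SWEET8 (7.77%) and SWEET10 (8.43%) are short, and those of SWEET4 (37.5%) and SWEET1 (39.1%) reach about as far as that of RR22 (40.01%).

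The SWEET family was followed beyond these genes. Of 17 SWEET genes, 16 were named on the array, and 8 of those were bright enough to be tested: SWEET1, SWEET4, SWEET8, SWEET10, SWEET2, SWEET6, SWEET7 and SWEET14. The other 8 were SWEET3, AtVEX1 (SWEET5), SWEET9, SWEET11, SWEET13, SAG29 (SWEET15), SWEET16 and SWEET17, and no array of theirs exceeded 202. SWEET11 and SAG29, the carriers known from later seed filling, were above the dim limit on 1 and 5 of the 14 arrays, and the nectary carrier SWEET9 on 0.

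Among the compartments, SWEET7 was brightest in the 2 coat regions. Its arrays read 171 and 324 in the general seed coat and 499 and 214 in the chalazal seed coat, which overlapped, against at most 30.4 on any endosperm array and 10.2 in the embryo proper. Set against the other compartments, SWEET7 differed by 2.46 on the log2 scale in the chalazal seed coat (SE 0.45, limma adjusted p = 0.000298) and by 1.95 in the general one (adjusted p = 0.00295). The general seed coat call was lost without general seed coat replicate 2, at an adjusted p of 0.103 in a range of 0.00160 to 0.103 over the 20 alternative fits. Endosperm was lower than seed coat by a log2 difference of -2.73 (adjusted p = 6.05e-06), called in all 20 alternative fits. SWEET7 was also called lower in the embryo proper (-1.23) and peripheral endosperm (-1.29), calls lost in 13 and 9 of 20 alternatives. The whole-seed arrays, at 1024 and 1278, stood above every compartment array, and the whole-seed difference was 3.74 (SE 0.44, adjusted p = 1.21e-05). Of all tested probe sets, 1.38% had both whole-seed arrays above all 12 compartment arrays, and among the 25 other sugar genes tested SWEET7 and SWEET14 did.

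The other tested SWEET genes were dimmer and their calls less firm. SWEET2, a vacuolar glucose carrier, read 199 and 86.4 in the general seed coat and was called higher there by 1.35 (SE 0.44, adjusted p = 0.0296), a call lost in 3 of 20 alternatives, among them those without general seed coat replicate 1 and without embryo proper replicate 1 (highest adjusted p 0.381). SWEET6 read 151 and 170.3 in the micropylar endosperm and was called higher there by 1.34 (adjusted p = 0.0373) and lower in the chalazal seed coat by -1.24 (adjusted p = 0.0458). These calls were lost in 10 and 11 of 20 alternatives. For endosperm against seed coat the SWEET6 difference was 1.36 (adjusted p = 0.00615), lost in 2 alternatives, with an adjusted p of up to 0.0530. SWEET14, known in Arabidopsis for gibberellin transport, read 150.1 and 104 in the whole seed and at most 95.5 in a compartment. The dim limits of the whole-seed arrays, 110 and 112, were the highest of all arrays, and only 1 of these readings was above its limit. The whole-seed call of SWEET14 (1.34, limma adjusted p = 0.0423) was lost in 11 of 20 alternatives. SWEET4, SWEET8 and SWEET10 covered a wider range across groups than these 4 genes, as they were chosen for.

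**Figure D3:**
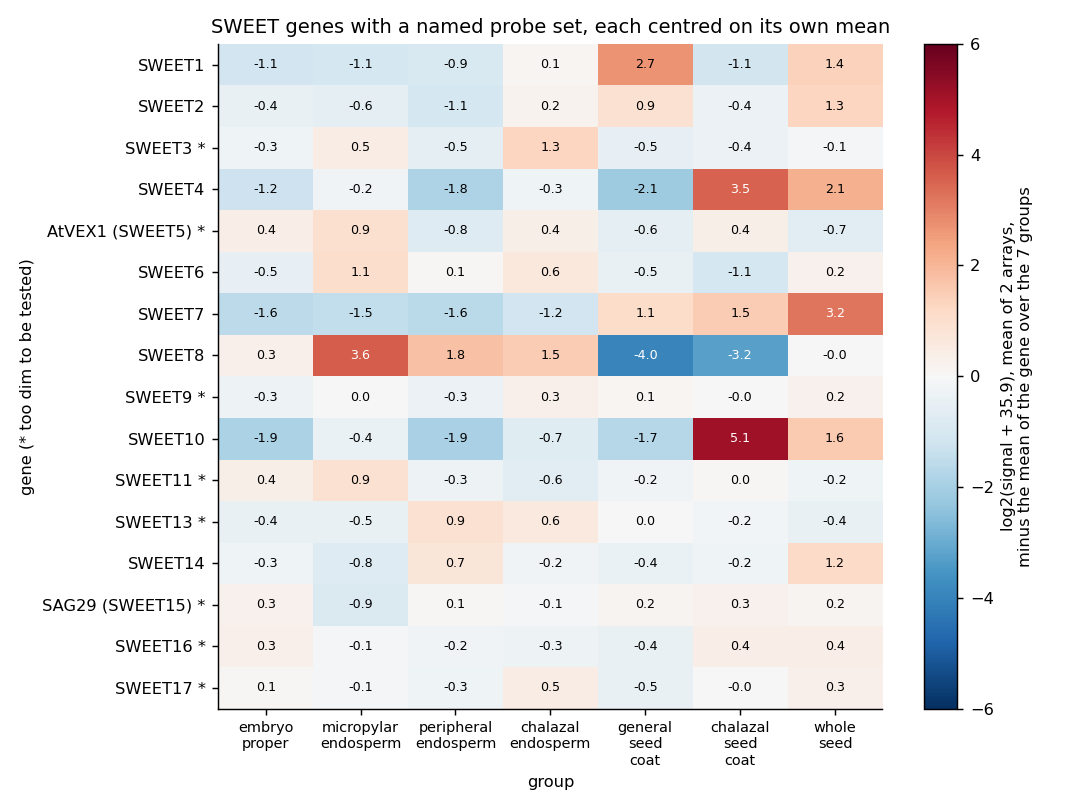
Mean log2(signal + 35.9) of 2 arrays minus the gene's own mean over the 7 groups, for 16 SWEET genes (rows) in 7 groups (columns); red is above and blue below that mean, and an asterisk marks genes too dim to be tested. SWEET4 and SWEET10 are red in the chalazal seed coat, SWEET8 across the endosperm, SWEET1 in the general seed coat and SWEET7 in the coat regions and the whole seed, while rows with an asterisk stay pale.

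Of 13 genes on the sucrose synthesis list, ATSPS4F was 1 of 4 with a named probe set, and all 4 were tested. It was the only sucrose phosphate synthase gene among them. The other 3 carry no symbol in the files beyond their locus. AT3G54270 was also brightest in the chalazal seed coat, with 942 and 333, but the embryo proper (339 and 330) overlapped it. Its difference in the chalazal seed coat was 1.97 (SE 0.52, adjusted p = 0.00713), lost without chalazal seed coat replicate 1 (adjusted p = 0.25, in a range of 0.00241 to 0.25). AT2G35840 peaked elsewhere, with 3935 and 3902 in the peripheral endosperm, where it was higher by 1.57 (SE 0.37, adjusted p = 0.00361), a call lost without either peripheral array (highest adjusted p 0.0667). AT5G42740 passed no test, and its compartment arrays ran from 1486 to 5592. ATSPS4F held a larger share in 1 compartment (93.6%) than AT3G54270 (44.0%), AT2G35840 (35.1%) and AT5G42740 (26.2%). As ATSPS4F was chosen for its compartment, this difference is given without a test and nothing is read from it. The 2 genes of the invertase list with a named probe set, cwINV6 and AT1G62660, were too dim to be tested.

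Beyond these 5 genes, 38 other genes of a sugar list of 159 were named on the array, of which 25 could be tested. The list spans 12 families, of which 4 (sucrose symporters, sucrose synthases, trehalose phosphate and raffinose genes) had no named probe set. A gene is called higher or lower at a limma adjusted p under 0.05 and at least a 2-fold difference. In the chalazal seed coat, the compartment of SWEET4, SWEET10 and ATSPS4F, 6 of the 25 were higher (15.5% of all tested probe sets were) and 6 lower (9.92%). The median difference was 0.40, against 0.04 over all tested probe sets. Besides SWEET7, APL4, a large subunit of ADP-glucose pyrophosphorylase in starch synthesis, was higher by 2.79 (SE 0.50, adjusted p = 0.000251), with 601 and 341 there and at most 178 on any other compartment array. TMT1, a monosaccharide carrier of the vacuole, was lower by -2.78 (SE 0.42, adjusted p = 3.31e-05), with 52.6 and 4.05. Without chalazal seed coat replicate 1 the counts were 2 higher and 1 lower, and without replicate 2 there were 3 higher.

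In the general seed coat, the compartment of SWEET1, 8 of 25 were higher (13.2% of all tested probe sets) and 2 lower (8.07%), with a median of 0.83 against -0.02. SFP2, of the ERD6-like sugar carriers, was higher by 3.03 (SE 0.47, adjusted p = 6.52e-05), at 891 and 1235, and the starch branching enzyme gene SBE2.2 by 2.15 (SE 0.33, adjusted p = 6.39e-05), at 3272 and 3492. AT2G31390 of the hexokinase and fructokinase list had the smallest adjusted p (4.59e-07, difference 3.45), with 5532 and 6610 there and at most 1273 on the other compartment arrays. AT1G34580 of the hexose symporter list was higher by 2.55 (adjusted p = 0.000508). These 4 calls held in all 20 alternative fits. Without general seed coat replicate 1 5 were higher and 1 was lower.

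In the micropylar endosperm, the compartment of SWEET8, 5 of 25 were higher (9.86% of all tested probe sets) and 6 lower (11.5%), with a median of -0.40 against -0.04. AT1G06020 of the hexokinase and fructokinase list was higher by 4.77 (SE 0.50, adjusted p = 5.80e-07), with 3607 and 3908 there. Like SWEET8 it was next brightest in the peripheral endosperm, at 927 and 752, and it was at most 81.0 on the coat arrays. TMT1 was higher by 2.39 (SE 0.42, adjusted p = 0.000277) at 1052 and 1241, and AT5G61520 of the hexose symporter list by 1.97 (adjusted p = 0.00305). AT1G66430 was lower by -2.05 (adjusted p = 0.00436), a call lost without micropylar endosperm replicate 2 (adjusted p = 0.126, in a range of 0.000883 to 0.126). The lower count fell to 2 without micropylar endosperm replicate 1 and to 1 without replicate 2.

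In the 3 compartments where none of the 5 sugar genes peaked, 1 to 3 of the 25 genes were higher. In the chalazal endosperm AT5G26250 of the hexose symporter list was the 1 gene higher (12.2% of all tested probe sets) and 4 were lower (18.7%). AT5G26250 differed by 4.25 (SE 0.55, adjusted p = 5.49e-06), with 1865 and 3359 against at most 503 on other compartment arrays. Without chalazal endosperm replicate 1, 2 genes were higher. In the peripheral endosperm 3 were higher (10.2%) and 4 lower (11.3%), counts of 0 and 2 without replicate 1 of that group, of 1 and 1 without replicate 2 and of 4 and 3 with quantile normalization. In the embryo proper 2 were higher (13.2%) and 7 lower (12.1%), among the latter SFP2 by -2.29 (adjusted p = 0.00107) and AT2G31390 by -2.26 (adjusted p = 7.69e-05). These became 1 and 2 without embryo proper replicate 1, when the SFP2 call was lost at an adjusted p of 0.0559 (range 0.000301 to 0.0559), and 1 and 4 without replicate 2.

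Set against the seed coat as a whole, the endosperm was higher for 5 of 25 genes (14% of all tested probe sets) and lower for 10 (22.2%), with a median of -0.75 against -0.06. By adjusted p, the lower genes were led by SBE2.2 (-2.26, adjusted p = 1.44e-06), AT2G31390 (-2.29, adjusted p = 2.69e-06) and SWEET7, and the higher ones by AT1G06020 (3.40, adjusted p = 1.34e-06). By size, AT5G51830 had the largest lower difference (-2.90, adjusted p = 8.29e-06). The values of the 5 sugar genes were -1.39 for SWEET1, -1.46 for SWEET4, 5.92 for SWEET8, -2.71 for SWEET10 and -3.13 for ATSPS4F. In the whole seed, 8 of 25 were higher than the log2 mean of the compartments (9.09% of all tested probe sets), SWEET7, SWEET2 and SWEET14 among them, and 0 were lower (1.64%). That mean gives dim compartments more weight, so a gene confined to few compartments can be called higher through the scale. On the linear scale the whole seed was 1.84 times the mean of the 6 compartments for AT2G31390 and 1.86 times for SBE2.2. For the other genes called higher it was 2.15 to 10.6 times. With limma at an unadjusted p under 0.05 there was 1 lower, and the call count was 1 without chalazal endosperm replicate 2. With quantile normalization 5 were higher and 1 lower. The higher count was 1 without whole seed replicate 1 and 2 without replicate 2, when SFP2 (1.91, adjusted p = 0.00917) lost its call, at an adjusted p of up to 0.143.

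**Figure D4:**
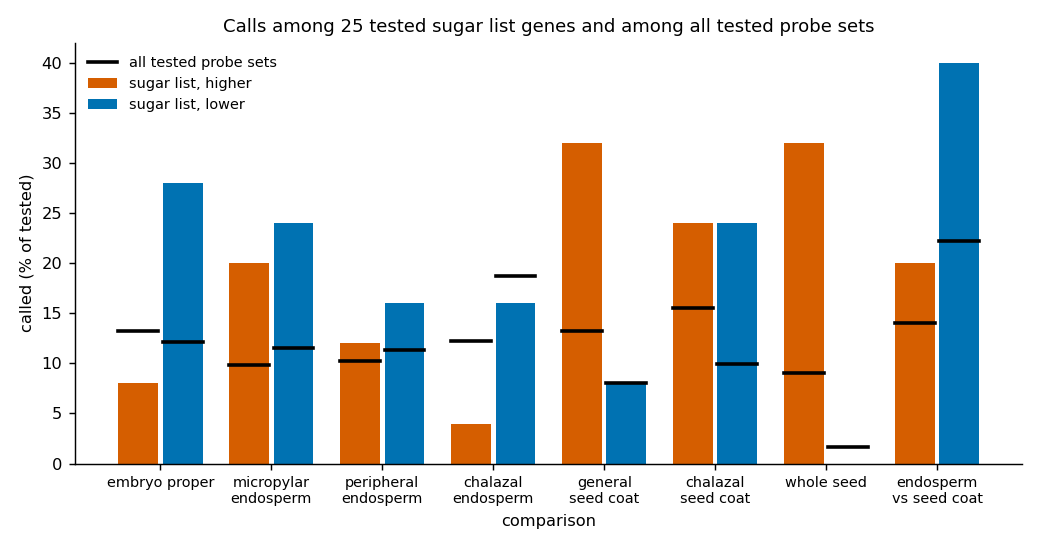
Share of the 25 tested sugar list genes called higher (orange) or lower (blue) in each comparison (vertical axis, percent), with black lines at the share of all tested probe sets. Orange bars stand furthest above their lines in the general seed coat (8 of 25) and the whole seed (8 of 25), and the bar is absent where 0 genes were lower in the whole seed.

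By brightest compartment mean, 9 of the 25 genes fell to the general seed coat, 6 to the micropylar endosperm, 4 to the chalazal seed coat, 3 to the peripheral and 2 to the chalazal endosperm and 1 to the embryo proper. Over all tested probe sets the shares were 15.2%, 16.7%, 18.1%, 13.4%, 18.05% and 18.6% in that order. The embryo proper was the brightest compartment for 0 of the 5 sugar genes and for AT1G66430 among the 25, and SWEET8 was the only 1 of them with both embryo arrays above the 40th percentile.

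Genes whose log2 values ran most like those of each sugar gene over the 14 arrays were taken from 9760 tested genes. SWEET10 ran closest to AT4G34560 (r = 0.976), the cell wall loosening expansin gene EXPA4 (0.962) and AT4G39780 (0.957). EXPA4 read 866 ± 412 in the chalazal seed coat, with 55.9 in the next compartment. SWEET4 ran closest to AT5G40980 (0.984), AT3G24230 (0.943) and AT5G08350 (0.932), and AT5G40980 reached 11506 ± 982 there against 298 in the next. ATSPS4F ran closest to AT5G54660 (0.957), AT5G17980 (0.946) and AT1G26450 (0.946). SWEET1 ran closest to AT3G26450 (0.942), AT3G46770 (0.930) and AT3G05180 (0.930), and SWEET8 to AT4G32080 (0.966), AT5G24316 (0.964) and AT5G58830 (0.962). Each of these 15 genes was brightest in the same compartment as the sugar gene it was matched to. The choice by correlation over the same arrays largely fixed this, and nothing is read from it. The lists of SWEET4, SWEET10 and ATSPS4F had no gene in common. Each list holds only the closest few of 9760 genes. Both chalazal seed coat arrays lay above all other compartment arrays in 8.45% of tested probe sets. Such short lists cannot show whether the genes differ, and nothing is read from the lack of shared genes.

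Chromosomal neighbours, taken from the gene order of TAIR10.1, did not share the peaks. SWEET10 lies between AT5G50780 and SWEET13. AT5G50780 was brightest in the peripheral endosperm (2718 ± 795) and had 97.0 ± 36.7 in the chalazal seed coat. SWEET13, too dim to be tested, had 23.3 ± 29.0 in the chalazal seed coat. SWEET8 lies between AT5G40250, brightest in the general seed coat (2585 ± 324), and AT5G40270, brightest in the chalazal seed coat (686 ± 107). Over the 14 arrays their correlations with SWEET8 were -0.83 and -0.60. AT4G10130, on 1 side of ATSPS4F, read 58.2 ± 76.2 in the chalazal seed coat and correlated with it at -0.07. The neighbours of SWEET1 and SWEET4 had no named probe set and were not analysed here.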

How the data were processed

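The deposited values were intensities on a linear scale, 1 per probe set and array of the ATH1 platform. GCOS is the tool given by the submitters' processing notes; its version and algorithm are not given in the sources used here, and no detection calls were used. The near-equal trimmed means come from the submitters' scaling, which was kept, and no depth exists for arrays, whose number (14) limits precision.

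The 5 members and all gene lists were chosen with earlier results of these data known. From the deposited intensities, log2(value + 35.9231) was taken, where 35.9231 is the 25th percentile of all values. Of 22746 probe sets (64 controls left out), 17336 with both arrays of at least 1 group above the array's 40th percentile were tested. The platform annotation gave 13513 probe sets 1 symbol, 503 several and 8730 none; probe sets with several were not named. Of the single-symbol probe sets, 13436 matched TAIR10.1, which was used for names and neighbours only. The brightest probe set stood for a gene.

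A mean per group was fitted with limma 3.58.1 (R 4.3.3), with a variance trend, 7 residual and 13.4 prior degrees of freedom and two-sided tests. P-values were Benjamini-Hochberg adjusted over all tested probe sets within each of 8 comparisons. The fit was tested on simulated data. Groups came from the sample labels.

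Genes were named by rule. The rule took the 5 members and all genes of the SWEET, sucrose synthesis and invertase lists with a named probe set. It also took up to 4 called list genes per direction and comparison, by adjusted p. The 3 closest genes by correlation per member, the neighbours and the markers completed it. Those listed beyond this rule were chosen after their values were seen. The alternatives were added values of 10 and 100, quantile normalization, no filter, no variance trend, a replicate block and each array left out, 20 in all. Figures used matplotlib 3.10.9.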

Additional observations from a re-analysis of the deposited data

Results flagged for a closer look

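In 4 sugar genes the step from the other regions to the chalazal region ran one way in the endosperm and the opposite way in the seed coat on every array, so that no array of 1 tissue overlapped the other direction. For SWEET1 the chalazal region was higher by 1.12 on the log2 scale in the endosperm and differed by -3.80 in the seed coat. For SWEET2 these values were 1.02 and -1.25, and for AT1G34580, of the hexose symporter list, 1.55 and -0.96. ATSPS4F had the reverse pattern, at -1.68 in the endosperm and 5.74 in the seed coat. In the endosperm, SWEET1 and SWEET2 were dim on every array except 1 chalazal array each. Their closest arrays were 65.5 in the chalazal against 59.9 in the peripheral endosperm for SWEET1. For SWEET2 they were 46.3 in the chalazal against 43.9 in the micropylar endosperm. The share of all tested probe sets with opposite steps was not computed, so nothing is read from the count of 4. The difference between the tissues was not tested for these genes, and SWEET1 and ATSPS4F were themselves chosen for their compartments.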

How the results depend on the processing

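The 20 alternatives were run on the counts of list genes called, the calls of single list genes and the gap between the brightest and second compartment of each of the 5 genes, and no gap or call of these turned its sign. The other differences, medians and shares were not rerun. In the peripheral endosperm 3 higher and 4 lower became 4 and 3 with quantile normalization, and in the micropylar endosperm 5 and 6 became 4 and 1 without its replicate 2. With 100 added in place of 35.9, the log2 gap of SWEET1 between its brightest and second compartment was 2.09 (2.55 as reported) and 1 list gene was lower in the whole seed (0 as reported). With quantile normalization the gap of SWEET8 was 1.55 (1.89 as reported), and 5 list genes were higher (8 as reported) and 1 lower in the whole seed. Without the filter on dim probe sets, 2 list genes were higher in the chalazal endosperm (1 as reported). The cause of these moves was not tested. Leaving out each array in turn, the numbers of list genes higher and lower ran from 1 to 3 and 2 to 7 in the embryo proper, 4 to 5 and 1 to 7 in the micropylar, 0 to 4 and 1 to 5 in the peripheral and 1 to 2 and 3 to 5 in the chalazal endosperm. They ran from 5 to 9 and 1 to 3 in the general seed coat, 2 to 7 and 1 to 6 in the chalazal seed coat, 1 to 9 and 0 to 1 in the whole seed, and 4 to 5 and 9 to 11 for endosperm against seed coat; fewer arrays in a group were left to test. The gaps ran from 2.12 to 2.97 for SWEET1, 2.67 to 4.90 for SWEET4, 1.80 to 1.98 for SWEET8, 4.68 to 6.26 for SWEET10 and 4.79 to 5.92 for ATSPS4F. Same-numbered arrays did not deviate together (correlations of -0.03 to 0.04 over 21 pairs of groups, 0 over 0.1). These correlations cannot show whether same-numbered samples came from the same plants. With the replicate number as a block, all 16 counts stayed within 1.5 times, for example 9 higher in the general seed coat (8 as reported). Arrays dimmer than their 40th percentile limit what can be said of the order among dim groups.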
